A study of Homo sapiens with 32 samples.

Results

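NEDD9 and its closest partners at focal adhesions were followed in MCF10A cells. These 7 genes of the 17788 in the table comprised the Cas family scaffolds NEDD9 and BCAR1, the adaptors PXN and CRK, and the kinases PTK2, PTK2B and SRC. They were found by gene symbol, and all 7 passed the filter on low counts. NEDD9 was selected on its count in these libraries, since its RNA was raised in solvent-treated clones with an edited JUNB gene, and the other 6 genes were added for their known link to it.

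MCF10A cells are an established line of human breast epithelium that does not form tumours. Clones 27 and 2 had wild-type JUNB (WT) and had passed through the same CRISPR/Cas9 cloning procedure as the edited clones, while clones 1 and 65 (mut) carried an extended deletion in JUNB. Per the study, the mut clones lacked the full-length protein but still held a smaller polypeptide that reacted with the JUNB antibody. JUNB is a subunit of the transcription factor AP-1. Every clone received solvent (0 h of TGFβ1) or 5 ng/ml of the cytokine TGFβ1 for 6, 24 or 72 h. Per the study, the controls were kept in solvent for 72 h, and all samples were harvested at the same time after seeding. With 2 replications of each clone and state there were 8 groups of 4 RNA-seq libraries. Each genotype is represented by 2 clones, so that effects of the edit and differences between clones cannot be told apart with certainty.

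Focal adhesions are the sites at which integrins couple the actin cytoskeleton to the extracellular matrix. When integrins are engaged, the kinase FAK, encoded by PTK2, phosphorylates itself and recruits SRC, and the pair phosphorylates docking proteins of the Cas family and paxillin. The phosphorylated docking proteins recruit CRK and so connect adhesion to small GTPases that drive membrane protrusion and migration. NEDD9, also called HEF1 or CAS-L, is the Cas family member known to be induced by TGFβ and to accompany invasive behaviour of epithelial tumours, whereas BCAR1, or p130Cas, is broadly expressed.

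NEDD9 (ENSG00000111859) lies at chr6:11183298-11382348 on the minus strand of GRCh38. RefSeq (GRCh38.p14) held 3 promoter windows for it, of which the 250 bases before the outermost start and before the start inside the gene are shown, because the gene counts do not tell which start gave the RNA. The window before the outermost BCAR1 start is shown beside them. Among the 11 windows searched, which belong to NEDD9, BCAR1, PXN and CRK, it was the only one with an AP-1 motif. This motif is the letters TGANTCA, which read the same on both strands. Windows of PTK2, PTK2B and SRC were not searched. Capitals mark that motif or a SMAD motif, CAGAC or its reverse complement GTCTG. All 3 windows are written 5′ to 3′ along the minus strand.
NEDD9 chr6:11382349-11382598: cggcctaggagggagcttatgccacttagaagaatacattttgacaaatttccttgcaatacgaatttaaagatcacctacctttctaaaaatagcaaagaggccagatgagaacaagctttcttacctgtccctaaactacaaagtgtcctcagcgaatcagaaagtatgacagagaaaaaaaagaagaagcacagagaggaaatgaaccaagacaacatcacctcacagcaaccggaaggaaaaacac
NEDD9 chr6:11232669-11232918: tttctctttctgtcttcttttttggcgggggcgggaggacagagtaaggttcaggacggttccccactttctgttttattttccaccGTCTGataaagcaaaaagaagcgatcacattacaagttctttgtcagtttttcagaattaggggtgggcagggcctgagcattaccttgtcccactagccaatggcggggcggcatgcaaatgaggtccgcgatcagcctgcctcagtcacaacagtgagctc
BCAR1 chr16:75268008-75268257: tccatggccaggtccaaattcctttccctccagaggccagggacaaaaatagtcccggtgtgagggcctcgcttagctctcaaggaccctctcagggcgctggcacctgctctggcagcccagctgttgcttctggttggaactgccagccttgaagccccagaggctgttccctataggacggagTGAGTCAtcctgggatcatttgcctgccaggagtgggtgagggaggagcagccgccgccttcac

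The letters TGANTCA were not found in the 250 bases before any of the 3 NEDD9 starts, and neither were those of the cAMP response element, TGACGTCA. The window inside the gene held 1 SMAD motif, whose first base lay 163 bases before the start. In BCAR1 the AP-1 motif began 64 bases before the outermost RefSeq start, and the other 4 BCAR1 windows had none. Over all 35116 RefSeq windows of this length, 6.57% held the AP-1 motif, 1.65% the cAMP response element and 38.0% the SMAD motif. The 2 PXN windows and the CRK window held no match to any of the 3 motifs. A match in such a window is a description of the sequence and not a binding site.

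Library totals ranged from 39702412 to 54651906 counts, and the floor of 3 counts corresponded to between 0.0549 and 0.0756 CPM, the counts of a gene scaled to a library total of 1e6. Of the 6 epithelial markers listed, all were detected in all 32 libraries, with KRT5 between 3260 and 8160 CPM. Markers of other cell types were near 0 apart from CD68, which reached 24.4 CPM. PTPRC stayed at or below 0.0498 CPM, and PECAM1 and CDH5 were not analysed here. JUNB RNA lay at 89.7 to 117 CPM in WT solvent and 69.2 to 172 CPM in mut solvent (log2 FC 0.10 ± 0.34 SE, adjusted p = 0.885), so that the gene count did not tell the genotypes apart.

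NEDD9 RNA was low in solvent-treated WT cells and higher in all other groups. In WT solvent it stood at 3.44 and 4.77 CPM in clone 27 and 1.98 and 1.94 CPM in clone 2. After 6 h of TGFβ1 it was at 18.1 and 20.6 CPM in clone 27 and 22.3 and 21.8 CPM in clone 2, and after 24 h at 38.8 and 54.4 CPM in clone 27 and 39.7 and 36.2 CPM in clone 2. At 72 h it was at 31.3 and 39.4 CPM in clone 27 and 35.6 and 44.1 CPM in clone 2. Each WT library with TGFβ1 thus lay above all 4 solvent libraries, and the log2 fold change (log2 FC) over solvent was 2.87 ± 0.47 SE, 3.88 ± 0.46 and 3.72 ± 0.46 at 6, 24 and 72 h. The solvent libraries took part in the choice of NEDD9, and these differences are given as a description.

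In mut cells the solvent level was already raised. NEDD9 was at 15.8 and 21.4 CPM in clone 1 and 35.0 and 39.6 CPM in clone 65 in mut solvent. The lowest of these libraries was above the highest WT solvent library, and the group means of 28.0 and 3.03 CPM differed 9.22-fold, a log2 difference of 3.22 ± 0.46 SE. This is the difference by which NEDD9 was chosen. With TGFβ1 the mut libraries gave 36.4 and 27.6 CPM in clone 1 and 60.3 and 62.8 CPM in clone 65, 43.2 and 41.6 CPM in clone 1 and 50.1 and 62.3 CPM in clone 65 and 30.5 and 40.7 CPM in clone 1 and 44.8 and 43.9 CPM in clone 65 at 6, 24 and 72 h. The corresponding log2 FCs over mut solvent were 0.77 ± 0.24 SE, 0.89 ± 0.24 and 0.58 ± 0.24, and the libraries at 6 and 72 h overlapped with those in solvent.

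**Figure D1:**
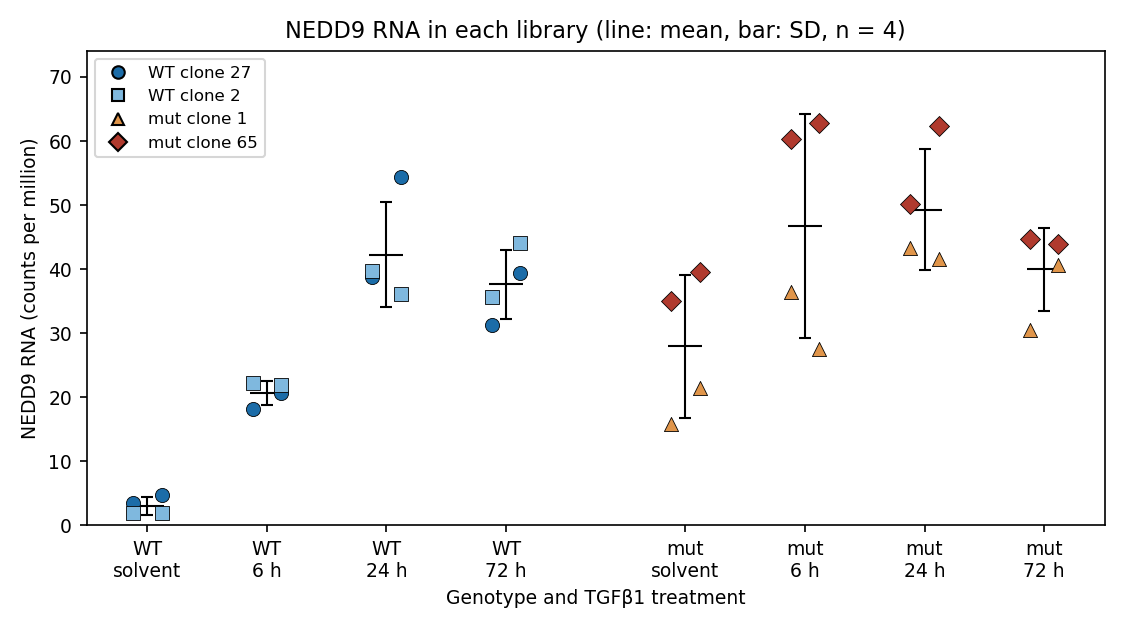
NEDD9 RNA in CPM (vertical axis, linear, from 0) in each of the 32 libraries, by genotype and treatment. Symbols mark the clones, horizontal lines the group means and bars the SD (n = 4). The WT solvent libraries lie at or below 4.77 CPM, and the lowest library of any other group is at 15.8 CPM.

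Comparisons without solvent libraries were tested for NEDD9, but they are not free of that choice. The clones are the same, and NEDD9 had also stood out in the 72 h interaction in earlier results of these data. Their p-values are therefore not independent evidence on NEDD9 in these clones. At 6 h NEDD9 was higher in mut than in WT (log2 FC 1.12 ± 0.25 SE, adjusted p = 0.00168), with all 4 mut libraries above all 4 WT libraries. At 24 h and 72 h the libraries of both genotypes overlapped, and the differences of 0.22 ± 0.22 (adjusted p = 0.477) and 0.075 ± 0.23 (adjusted p = 0.825) did not pass the test. In WT cells NEDD9 rose further between 6 and 24 h (1.02 ± 0.25, adjusted p = 0.00289). Its change from 24 to 72 h was -0.16 ± 0.23 (adjusted p = 0.744). In mut cells neither step passed the test, with 0.12 ± 0.22 (adjusted p = 0.845) from 6 to 24 h and -0.31 ± 0.23 (adjusted p = 0.527) from 24 to 72 h.

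Followed clone by clone, each with 2 libraries per state, NEDD9 at 24 h of TGFβ1 was 11.4 times its own solvent mean in WT clone 27 and 19.4 times in WT clone 2. The factors were 2.28 in mut clone 1 and 1.51 in mut clone 65. All 8 series, meaning 1 clone in 1 replication, had higher NEDD9 at each time than in their own solvent library. The log2 changes at 72 h spanned 3.04 to 4.50 in the 4 WT series and 0.15 to 0.95 in the 4 mut series, without overlap. All of these changes are taken from the solvent libraries by which NEDD9 was chosen. Their lack of overlap is therefore a description and not separate evidence. The log2 interaction (mut change minus WT change) of NEDD9 was -2.10 ± 0.53 SE, -3.00 ± 0.52 and -3.14 ± 0.52 at 6, 24 and 72 h, given without a test.

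The mut clones differed from each other. Mean NEDD9 in solvent was 37.3 CPM in clone 65 and 18.6 CPM in clone 1, and at 6 h it was 61.5 and 32.01 CPM. By 72 h the clones were at 44.3 and 35.6 CPM. JUNB RNA was likewise higher in clone 65, with means of 149.9 against 73.3 CPM in solvent and 465 against 166 CPM at 6 h, and its part in the NEDD9 difference was not tested. For NEDD9 clone 1 and clone 65 were each above both WT clones in solvent. The WT clones differed there as well, with NEDD9 means of 4.10 CPM in clone 27 and 1.96 CPM in clone 2.

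Per length of annotated exon sequence, in CPM per kb, the members spanned a wide range of levels in WT solvent. PXN was the most abundant at 79.5 ± 2.54 (SD, n = 4), followed by CRK at 43.3 ± 2.25 and PTK2B at 21.7 ± 1.30. PTK2 at 14.1 ± 0.603 and BCAR1 at 13.6 ± 0.359 did not differ beyond their spread, and SRC came next at 11.5 ± 0.862. NEDD9 was last at 0.293 ± 0.130. In mut solvent the order was the same, from PXN at 64.0 ± 1.87 to SRC at 10.4 ± 0.316 and NEDD9 at 2.70 ± 1.08, and BCAR1 at 10.9 ± 0.285 differed from SRC by less than the sum of their SDs. Which isoforms were expressed is not known from gene counts, and a shorter transcript would raise these values.

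The share of NEDD9 in the summed per-length level of the 2 Cas scaffolds NEDD9 and BCAR1 shows the shift within this family. It was 2.10% ± 0.886 (SD, n = 4) in WT solvent, 13.0% ± 2.64, 21.8% ± 1.39 and 18.4% ± 2.85 at 6, 24 and 72 h. In mut cells it was 19.5% ± 6.30 in solvent and 26.8% ± 6.61, 29.8% ± 3.47 and 24.6% ± 2.97 after 6, 24 and 72 h. BCAR1 therefore remained the larger part of this sum in all 8 groups. Among the other family members, CASS4 did not exceed 0.211 CPM in any library, with 12 libraries at 0, and EFS was not analysed here.

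BCAR1 (ENSG00000050820, chr16:75228181-75268053, minus strand) showed a small rise in WT cells at 72 h and lower levels in mut cells. It lay at 119.8 to 127 CPM in WT solvent and 97.4 to 103 CPM in mut solvent, without overlap. This difference of -0.32 ± 0.086 SE passed the test (adjusted p = 0.0125), but not when the replications of a clone were summed (adjusted p = 0.0908). BCAR1 was also lower in mut at 24 h (-0.38 ± 0.085, adjusted p = 0.000899) and at 72 h (-0.46 ± 0.085, adjusted p = 8.62e-05), and at 6 h the difference was -0.19 ± 0.085 (adjusted p = 0.12, or 0.0358 without WT 6 h 2-1).

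Over WT solvent, BCAR1 was called only at 72 h among the 3 times, where it lay at 139.7 to 164 CPM (0.25 ± 0.085, adjusted p = 0.0135). The call was lost without the library WT 72 h 27-1 (adjusted p = 0.0594), in which BCAR1 was highest. At 24 h its change of 0.096 ± 0.085 was not called (adjusted p = 0.359), but it was called with TMM factors (adjusted p = 0.0133). No change over mut solvent passed the test for BCAR1, the largest being 0.13 ± 0.086 at 6 h (adjusted p = 0.391).

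PXN encodes paxillin, an adaptor that binds FAK and Cas-CRK complexes at the cytoplasmic face of focal adhesions (ENSG00000089159, chr12:120210439-120265771, minus strand). In WT cells PXN was at 580.3 and 609.5 CPM in clone 27 and 609.7 and 574 CPM in clone 2 in solvent and at 729.6 and 796 CPM in clone 27 and 746 and 805 CPM in clone 2 after 24 h of TGFβ1. At 72 h it was at 701 and 732 CPM in clone 27 and 725 and 766 CPM in clone 2. All WT libraries at 24 and 72 h were above all WT solvent libraries, and PXN rose by 0.14 ± 0.047 SE (log2 FC), 0.37 ± 0.047 and 0.30 ± 0.047 at 6, 24 and 72 h (adjusted p = 0.0351, 1.71e-07 and 5.63e-06). The 6 h call was lost in 5 of 8 fits without 1 library, namely WT solvent 27-1 or 2-2 or WT 6 h 2-1, 27-2 or 2-2.

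In mut cells PXN was at 458 and 484 CPM in clone 1 and 478 and 490.0 CPM in clone 65 in solvent, at 546 and 535 CPM in clone 1 and 528 and 527 CPM in clone 65 at 24 h and at 503 and 569.9 CPM in clone 1 and 540.3 and 584 CPM in clone 65 at 72 h. It rose by 0.16 ± 0.047 at 24 h (adjusted p = 0.0129, lost without mut solvent 1-1) and 0.20 ± 0.047 at 72 h (adjusted p = 0.0024). At 6 h the change was 0.037 ± 0.047 (adjusted p = 0.706). In each of the 4 states the mut libraries were below all WT libraries, and PXN was lower in mut, with log2 differences of -0.31 ± 0.047, -0.42 ± 0.047, -0.53 ± 0.047 and -0.41 ± 0.047 in solvent and at 6, 24 and 72 h (adjusted p = 2.83e-05, 1.79e-07, 2.46e-09 and 1.00e-07). The response of PXN was smaller in mut at 24 h (interaction -0.21 ± 0.067, adjusted p = 0.0407). This call held without WT solvent 2-1 or 27-2, WT 24 h 27-1 or 2-1, mut solvent 1-1 or mut 24 h 1-1, and was lost in the other 10 of 16 fits without 1 library.

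CRK encodes an SH2 and SH3 domain adaptor that docks on phosphorylated Cas proteins and paxillin (ENSG00000167193, chr17:1420689-1463162, minus strand). It varied little, with group means between 171.9 CPM in mut 72 h and 185.8 CPM in WT 72 h, and passed the test in 0 of the 17 comparisons with limma-voom and library-size scaling, although 2 had an unadjusted p under 0.05 and 5 were called with DESeq2. The values nearest to a call were its differences between mut and WT at 72 h (-0.11 ± 0.055, adjusted p = 0.104) and the interaction at 72 h (-0.18 ± 0.078, adjusted p = 0.136). With TMM factors CRK was higher than WT solvent at 24 h (log2 FC 0.23, adjusted p = 0.00151) and 72 h (0.24, adjusted p = 0.00133), and lower in mut at 72 h (-0.20, adjusted p = 0.00961).

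The related adaptor gene CRKL, with means of 162 CPM in WT solvent and 169 CPM in mut solvent, was set beside CRK, since a ratio of 2 genes in 1 library does not depend on the scaling. CRKL was not constant: at 72 h it was at 139.7 CPM in WT (-0.21 ± 0.064 SE, adjusted p = 0.00717) and 144 CPM in mut (-0.23 ± 0.064 SE, adjusted p = 0.00952), beside medians over all genes of -0.19 and -0.087. CRK differed from solvent at 72 h by 0.078 ± 0.055 in WT (adjusted p = 0.24) and -0.099 ± 0.055 in mut (adjusted p = 0.199). The log2 ratio of CRK to CRKL counts was 0.12 ± 0.13 (SD, n = 4) in WT solvent and 0.13 ± 0.076 in mut solvent. It was 0.41 ± 0.012 in WT and 0.25 ± 0.045 in mut at 72 h. The ratio at 72 h lay above that in solvent without overlap in both genotypes and was lower in mut than in WT by 0.16 (exact two-sided permutation p = 0.0286). After Benjamini-Hochberg adjustment over the 20 ratio comparisons the exact permutation p of each of these was 0.0816. With 4 against 4 libraries, 0.0286 is the smallest p this test can give.

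**Figure D2:**
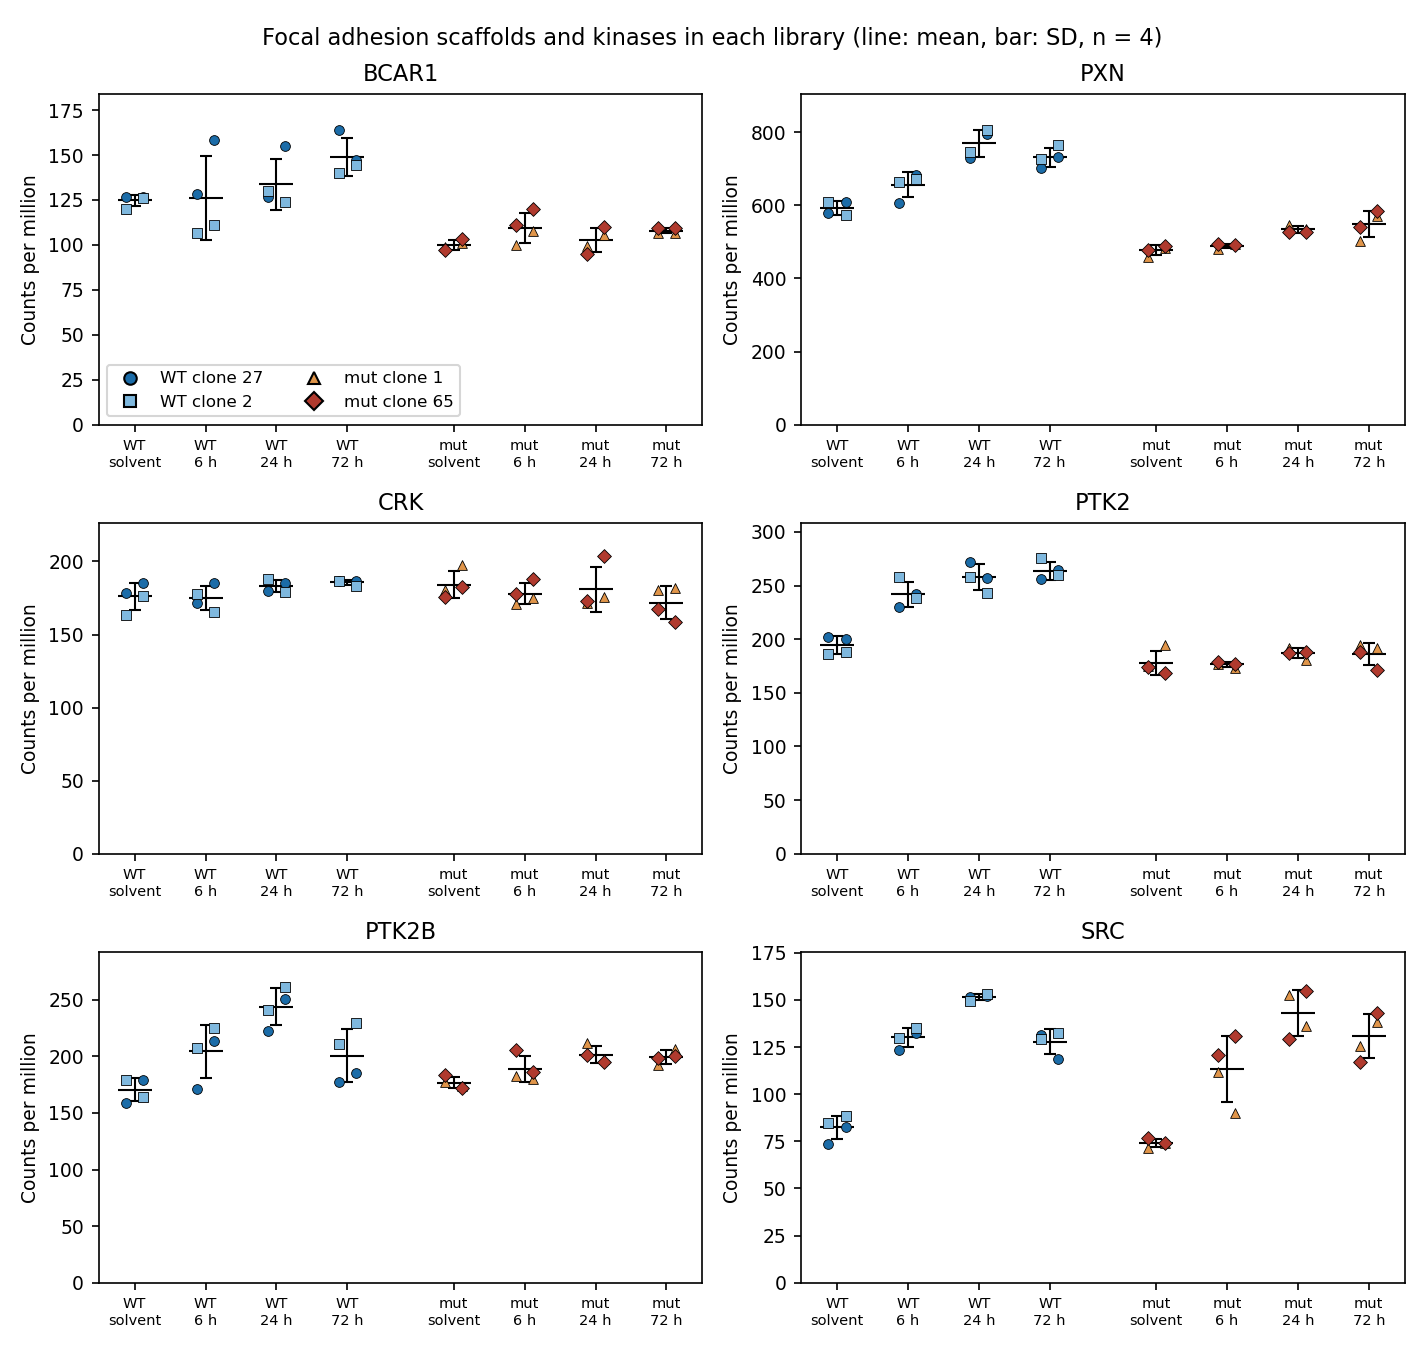
RNA levels in CPM (vertical axes, linear, from 0) of BCAR1, PXN, CRK, PTK2, PTK2B and SRC in each library, by genotype and treatment. Symbols mark the clones, horizontal lines the group means and bars the SD (n = 4). PXN libraries of mut lie below those of WT in each state, and SRC rises with TGFβ1 in both genotypes.

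PTK2 encodes FAK, the kinase that starts signalling at engaged integrins (ENSG00000169398, chr8:140657900-141002216, minus strand). In WT solvent PTK2 was at 202 and 200.5 CPM in clone 27 and 186 and 188 CPM in clone 2. At 24 h of TGFβ1 it was at 272 and 257 CPM in clone 27 and 258 and 243 CPM in clone 2, and at 72 h at 256 and 264 CPM in clone 27 and 275 and 259.9 CPM in clone 2. Each WT library with TGFβ1, those of 6 h (229.8 to 258 CPM) included, was above all WT solvent libraries. PTK2 rose by 0.32 ± 0.049 SE (log2 FC), 0.41 ± 0.049 and 0.44 ± 0.049 at 6, 24 and 72 h (adjusted p = 5.09e-05, 8.95e-08 and 2.66e-08).

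The mut libraries of PTK2 spanned 168.5 to 194.6 CPM over all states. PTK2 was at 175 and 194 CPM in clone 1 and 174 and 168 CPM in clone 65 in solvent, at 192 and 181 CPM in clone 1 and 187 and 188 CPM in clone 65 at 24 h and at 195 and 192 CPM in clone 1 and 188 and 172 CPM in clone 65 at 72 h, with overlap at each time. The changes of -0.0087 ± 0.049, 0.072 ± 0.049 and 0.069 ± 0.049 at 6, 24 and 72 h did not pass the test (adjusted p = 0.946, 0.309 and 0.332). With TMM factors the last 2 were called, at 0.16 (adjusted p = 0.0324) and 0.14 (adjusted p = 0.0443).

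The PTK2 response itself differed between the genotypes. The interaction was -0.33 ± 0.07 SE at 24 h (adjusted p = 0.00366) and -0.37 ± 0.07 at 72 h (adjusted p = 0.000964), and at both times each of the 4 mut series changed less than each of the 4 WT series. At 6 h it was -0.32 ± 0.07 (adjusted p = 0.0816), and it was called there with the series as a replicate block (adjusted p = 0.0352) and with DESeq2 (adjusted p = 0.00551), or without WT 6 h 27-1 (adjusted p = 0.0429). The 24 h interaction was not called on sums of the replications of a clone (adjusted p = 0.0763). In solvent PTK2 differed by -0.13 ± 0.049 between mut and WT (adjusted p = 0.0858), which was called without the library mut solvent 1-2 (adjusted p = 0.0247). With TGFβ1 PTK2 was lower in mut, with log2 differences of -0.45 ± 0.049, -0.46 ± 0.049 and -0.50 ± 0.049 at 6, 24 and 72 h (adjusted p = 1.00e-07, 3.97e-08 and 9.22e-09).

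PTK2B encodes PYK2, the second kinase of the FAK family, which responds to calcium and stress signals as well as to adhesion (ENSG00000120899, chr8:27311482-27459391, plus strand). Its RNA lay at 159 to 179 CPM in WT solvent, 222 to 261 CPM at 24 h and 178 to 229 CPM at 72 h. The rise was 0.26 ± 0.074 SE, 0.52 ± 0.074 and 0.23 ± 0.074 at 6, 24 and 72 h (adjusted p = 0.016, 1.19e-06 and 0.0107), and the step from 6 to 24 h was 0.26 ± 0.074 (adjusted p = 0.00866). Leaving out 1 library ended the call at 6 h for WT solvent 27-1 or 2-2 or WT 6 h 2-2, at 72 h for WT 72 h 2-2 and for the step for WT 6 h 27-1. The step down from 24 to 72 h in WT was -0.29 ± 0.074 (adjusted p = 0.0154), and the libraries of the 2 times overlapped. This call was lost without WT 24 h 2-2, WT 72 h 27-1 or WT 72 h 27-2.

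In mut PTK2B lay at 172 to 184 CPM in solvent, 195 to 212 CPM at 24 h and 192 to 207 CPM at 72 h. The mut libraries at 24 and 72 h were above all mut solvent libraries, but the changes of 0.19 ± 0.074 and 0.17 ± 0.074 missed the threshold (adjusted p = 0.0618 and 0.0876). Both were called with the series as a replicate block (adjusted p = 0.00983 and 0.017) and with TMM factors (adjusted p = 0.0184 and 0.0284). The PTK2B difference between mut and WT at 6 h was -0.11 ± 0.074 (adjusted p = 0.305, or 0.0477 without WT 6 h 27-1), and PTK2B was lower in mut at 24 h (-0.27 ± 0.074, adjusted p = 0.00464). Its interaction at 24 h was -0.33 ± 0.10 (adjusted p = 0.0451). This call held without WT solvent 2-1 or 27-2, WT 24 h 27-1 or mut 24 h 1-1, and was lost in the other 12 of 16 fits without 1 library.

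The balance of the FAK family kinases was followed as the log2 ratio of PTK2B to PTK2 counts. It was -0.19 ± 0.12 (SD, n = 4) in WT solvent and -0.40 ± 0.16 in WT at 72 h, against -0.0078 ± 0.11 in mut solvent and 0.097 ± 0.099 in mut at 72 h. The mut ratio was higher than the WT ratio by 0.50 at 72 h and by 0.34 at 6 h (exact two-sided permutation p = 0.0286 each, adjusted p = 0.0816). All 4 mut libraries were above all 4 WT libraries at both times. At 24 h the ratio was -0.081 ± 0.16 in WT, above its solvent mean, and 0.11 ± 0.04 in mut. The genotypes overlapped there, with a difference of 0.19 (exact permutation p = 0.0571). In solvent the difference was 0.18 (exact permutation p = 0.0857).

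SRC encodes the tyrosine kinase that binds autophosphorylated FAK (ENSG00000197122, chr20:37344685-37406050, plus strand). SRC rose with TGFβ1 at all 3 times in both genotypes. In WT it was at 73.8 and 82.6 CPM in clone 27 and 84.6 and 88.4 CPM in clone 2 in solvent and at 152 and 152 CPM in clone 27 and 149.6 and 153 CPM in clone 2 at 24 h. In mut it was at 71.2 and 74.0 CPM in clone 1 and 76.8 and 74.0 CPM in clone 65 in solvent and at 152 and 136 CPM in clone 1 and 129 and 155 CPM in clone 65 at 24 h. Within each genotype the libraries with TGFβ1 were above all solvent libraries at each time.

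The log2 FCs of SRC in WT were 0.67 ± 0.082 SE, 0.88 ± 0.082 and 0.64 ± 0.082 at 6, 24 and 72 h (adjusted p = 1.86e-06, 9.28e-10 and 2.68e-07). In mut they were 0.60 ± 0.082, 0.95 ± 0.082 and 0.82 ± 0.082 (adjusted p = 4.73e-05, 5.92e-09 and 3.21e-08). No difference in response was detected, with interactions of -0.061 ± 0.12, 0.064 ± 0.12 and 0.18 ± 0.12 (adjusted p = 0.999, 0.803 and 0.325). SRC did not pass the test between mut and WT in any state, the largest difference being -0.21 ± 0.08 at 6 h (adjusted p = 0.0606). Without the library mut 6 h 65-2 this difference was called (adjusted p = 0.0146). SRC rose from 6 to 24 h in WT (0.22 ± 0.08, adjusted p = 0.0397) and in mut (0.34 ± 0.08, adjusted p = 0.0179), calls that were lost in WT without any 1 library other than WT 6 h 2-2 and in mut without mut 6 h 1-2, mut 24 h 1-1 or mut 24 h 65-2. The step from 24 to 72 h in WT was -0.25 ± 0.08 (adjusted p = 0.0535) and was called with the series as a replicate block (adjusted p = 0.0171).

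**Figure D3:**
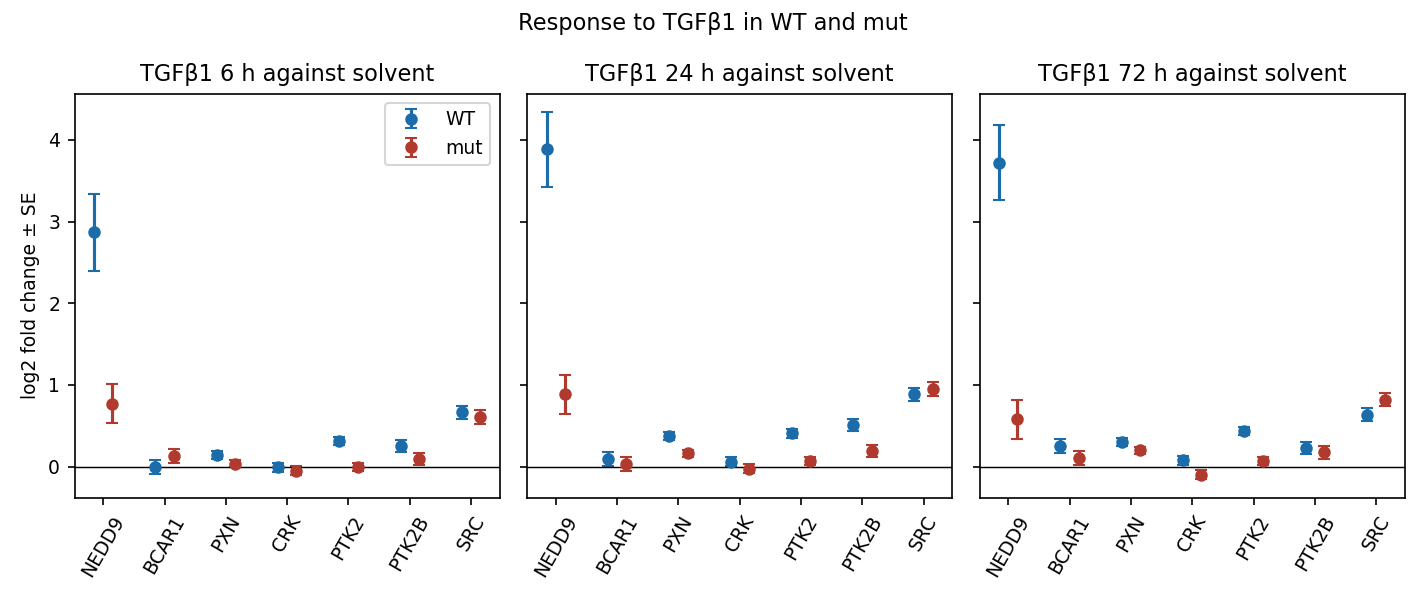
log2 fold change over solvent (vertical axis) of the 7 genes after 6, 24 and 72 h of TGFβ1, in WT (blue) and mut (red). Points are limma-voom estimates and bars 1 SE (n = 4 against 4). NEDD9 reaches 3.88 in WT and 0.89 in mut at 24 h, while SRC lies close together in both genotypes.

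Of the 6 members other than NEDD9, 4, 4 and 5 were called in WT at 6, 24 and 72 h, and every call was a rise. Over all 14865 genes tested, 17%, 52.1% and 52.2% were called at these times. Rises made up 5.13%, 14.1% and 13.9% of all genes, and falls 11.9%, 38% and 38.4%. In mut cells 1, 2 and 2 of the 6 were called at 6, 24 and 72 h, against 7%, 23.8% and 24.1% of all genes. These calls were rises as well, and rises made up 2.06%, 6.75% and 7.81% of all genes. With TMM factors 4 of 6 were called in mut at 24 h and at 72 h, where 17.3% and 20.6% of all genes were. Scaled by library size, the 14865 genes had a median log2 FC of -0.18 in WT at 24 h and -0.19 at 72 h, so that relative to this median the members stood higher, as with SRC at 1.06, PTK2 at 0.58 and CRK at 0.23 at 24 h. With TMM factors these medians were 0.00138 and -0.0286.

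Between mut and WT, 2 of 6 members were called in solvent, where 12.7% of all genes were. At 6, 24 and 72 h, 3, 4 and 3 of 7 were called, against 21.4%, 36.9% and 39.2% of all genes. All of these calls were lower in mut, except NEDD9 at 6 h, which is part of that count although it was chosen in these same clones. Of all genes, 6.32% were called lower in mut in solvent, and 10%, 12.2% and 13.2% at 6, 24 and 72 h. The interaction was called for 0, 3 and 1 of 6 members at 6, 24 and 72 h, against 0.074%, 9.65% and 12.3% of all genes, and each called member changed less in mut. Calls with the mut change below the WT change made up 0.0673%, 1.93% and 2.92% of all genes. For the interaction at 6 h, limma-voom gave an unadjusted p under 0.05 for 1 member, PTK2, and calls were made for 0 members with TMM factors, 0 with the edgeR quasi-likelihood test and 1 with DESeq2. These settings called 0.0605%, 0.114% and 0.31% of all genes. Between consecutive times in WT, 4 of 7 members, NEDD9 among them, were called from 6 to 24 h (28.2% of all genes) and 1 from 24 to 72 h (7.83%). In mut these counts were 1 (3.12%) and 0 (1.31%). In the last of these comparisons limma-voom gave 0 members an unadjusted p under 0.05, and the edgeR and DESeq2 tests called 0 as well.

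**Figure D4:**
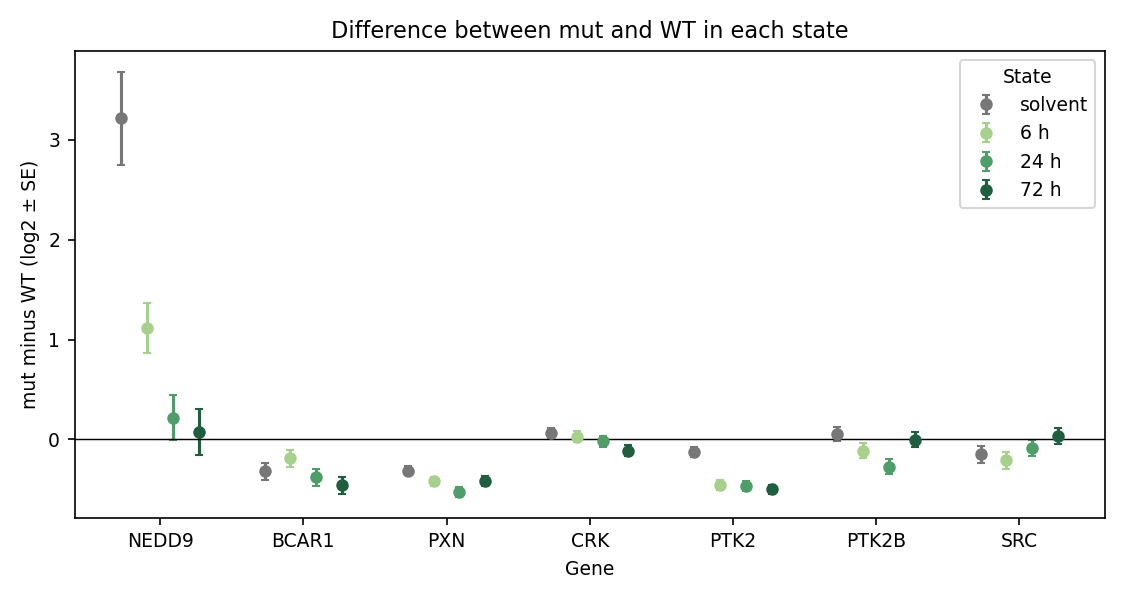
Difference between mut and WT (vertical axis, log2, mut minus WT) of the 7 genes in solvent and after 6, 24 and 72 h of TGFβ1. Points are limma-voom estimates and bars 1 SE (n = 4 against 4). The NEDD9 difference goes from 3.22 in solvent to 0.08 at 72 h, and PXN lies below 0 in all 4 states.

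A list of 60 further genes of focal adhesion signalling placed the members in their pathway, and 56 of them were tested. In WT at 72 h 34 of 56 were called, 24 higher and 10 lower, with a median log2 FC of 0.13 against -0.19 over all genes. Of all genes 52.2% were called, 13.9% higher and 38.4% lower. With TMM factors the split of the pathway genes was 34 higher and 5 lower. LPXN, which encodes the paxillin relative leupaxin, rose most among the genes named by the rule (2.30 ± 0.27 SE, adjusted p = 5.12e-08), from a mean of 16.6 to 76.1 CPM. In mut LPXN went from a mean of 12.5 to 35.4 CPM (1.54 ± 0.29 SE, adjusted p = 0.00022). The paxillin relative TGFB1I1, or HIC-5, rose as well (0.74 ± 0.12 SE, adjusted p = 4.83e-06). Adaptor genes that rose were NCK2 (1.06 ± 0.09 SE, adjusted p = 2.84e-10), BCAR3 (0.34 ± 0.058 SE, adjusted p = 1.49e-05), whose product binds Cas proteins, and ELMO2 (0.27 ± 0.058 SE, adjusted p = 0.000313), a partner of the CRK-associated exchange factor DOCK1.

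The kinase genes FYN (0.81 ± 0.25 SE, adjusted p = 0.00711) and ABL2 (0.59 ± 0.12 SE, adjusted p = 0.000103) rose in WT at 72 h, as did TNS1 (1.16 ± 0.22 SE, adjusted p = 7.36e-05), which encodes the integrin-binding protein tensin, and FERMT1 (0.87 ± 0.12 SE, adjusted p = 4.14e-07), encoding kindlin-1. GRB7 fell (-0.73 ± 0.21 SE, adjusted p = 0.00395), as did PIK3R1 (-0.56 ± 0.11 SE, adjusted p = 0.000101), which encodes the regulatory subunit of PI3 kinase. In mut cells 20 of 56 were called at 72 h, 12 higher and 8 lower, with a median of 0.069. Of all genes 24.1% were called, 7.81% higher and 16.3% lower. With TMM factors 19 of the pathway genes were higher and 2 lower. At 6 h 16 of 56 were called in WT (14 higher) and 2 in mut (1 higher, or 3 of 3 with TMM factors), beside 17% and 7% of all genes. At 24 h 29 were called in WT and 20 in mut, beside 52.1% and 23.8%. The WT split was 21 higher and 8 lower, or 35 and 3 with TMM factors, and the mut split was 13 and 7, or 16 and 4. Of all genes, 5.13% were called higher in WT and 2.06% in mut at 6 h, and 14.1% and 6.75% at 24 h.

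In solvent 12 of the 56 pathway genes differed between mut and WT, beside 12.7% of all genes, 5 higher and 7 lower in mut. TNS1 was higher (1.72 ± 0.21 SE, adjusted p = 1.76e-06), with a mean of 43.0 against 13.3 CPM. TNS2 (0.51 ± 0.11 SE, adjusted p = 0.00127), ARHGAP26 (0.63 ± 0.15 SE, adjusted p = 0.00545) and SHC1 (0.26 ± 0.076 SE, adjusted p = 0.0238) were higher in mut. FYN (-1.09 ± 0.32 SE, adjusted p = 0.0214), PTPN1 (-0.37 ± 0.068 SE, adjusted p = 0.000442), encoding the phosphatase PTP1B, BCAR3 (-0.24 ± 0.058 SE, adjusted p = 0.00566), ELMO2 (-0.19 ± 0.06 SE, adjusted p = 0.0364) and ARHGEF6 (-0.99 ± 0.32 SE, adjusted p = 0.0373) were lower. Among the single libraries left out, WT solvent 27-2, mut solvent 1-1 or mut solvent 65-1 ended the call of FYN, any solvent library of clone 27 or 65 that of SHC1, any solvent library of clone 27 or 1 that of ARHGEF6, and all but WT solvent 27-2 and mut solvent 1-2 that of ELMO2. At 6, 24 and 72 h 16, 26 and 26 of 56 were called, beside 21.4%, 36.9% and 39.2% of all genes. Of these pathway genes 12, 20 and 18 were lower in mut, as were 10%, 12.2% and 13.2% of all genes. With TMM factors 25 of 26 pathway genes were lower at 24 h and 20 of 25 at 72 h.

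The interaction was called for 1, 6 and 6 of the 56 pathway genes at 6, 24 and 72 h, beside 0.074%, 9.65% and 12.3% of all genes, so that the shares at 24 and 72 h were near those of all genes. In 1, 6 and 5 of these the mut change was below the WT change, a direction called in 0.0673%, 1.93% and 2.92% of all genes. With TMM factors the mut change was below in 7 of 7 pathway genes called at 72 h. At 72 h these included TNS1 (-1.45 ± 0.28 SE, adjusted p = 0.00122), FERMT1 (-0.64 ± 0.16 SE, adjusted p = 0.0105) and ILK (-0.38 ± 0.11 SE, adjusted p = 0.02), which encodes the integrin-linked kinase and lost its call without mut solvent 65-2. With the series as a replicate block 14 were called at 24 h (12 below, 2 above) and 15 at 72 h (10 below, 5 above), while 18.7% and 23.5% of all genes were. The medians over the 56 genes were -0.098 and -0.066, beside 0.084 and 0.10 over all genes.

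Over the 32 libraries, the genes whose log2 CPM followed NEDD9 most closely among 10734 genes with a mean of at least 5 CPM were CCN2 (r = 0.899), PALLD (r = 0.889), JUN (r = 0.881), GADD45B (r = 0.862) and LOX (r = 0.86). These Pearson correlations are a description, since the points share clones and treatments. CCN2, which encodes a matricellular growth factor, had group means of 43.5 CPM in WT solvent, 133.6 CPM in WT 24 h and 80.4 CPM in mut solvent. PALLD encodes the actin-associated protein palladin, and its means were 305.0, 525.4 and 542.7 CPM in these groups. JUN, which like JUNB encodes a subunit of AP-1, was at 41.4, 169.4 and 78.7 CPM, and LOX, encoding the matrix cross-linking enzyme lysyl oxidase, at 9.94, 34.4 and 24.0 CPM. GADD45B, a stress response gene, was at 21.1, 38.1 and 34.3 CPM. Among the members, SRC followed NEDD9 most closely (r = 0.597), then PTK2B (r = 0.514), while BCAR1 had r = -0.119.

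Other markers moved with the same contrasts. The summed level of the 6 epithelial markers was 6829 to 9215 CPM in WT solvent and 10166 to 12145 CPM in mut solvent, and KRT17 (1.09 ± 0.24 SE, adjusted p = 0.00262) and EPCAM (0.73 ± 0.19 SE, adjusted p = 0.00825) were higher in mut solvent. At 72 h of TGFβ1 EPCAM was lower in WT (-1.66 ± 0.23 SE, adjusted p = 1.02e-06) and in mut (-0.97 ± 0.19 SE, adjusted p = 0.00031), as were KRT5 (-0.77 ± 0.095 and -0.41 ± 0.097) and CDH1 (-0.65 ± 0.25 and -0.77 ± 0.25). KRT14 was higher (1.48 ± 0.32 in WT and 1.58 ± 0.32 in mut), and each of these changes passed the test. Of the 7 listed markers of other cell types 4 were in the table and 1, CD68, passed the filter. Their sum, nearly all of it CD68, was 9.06 to 14.3 CPM in WT solvent, 16.7 to 24.5 CPM in WT at 72 h and 5.93 to 7.48 CPM in mut solvent. PTPRC, CD3E and VWF were at 0 in 26, 28 and 19 of 32 libraries. The part of these differences in the results for the members was not tested, and in bulk RNA fewer cells that carry a transcript and less of it per cell cannot be told apart.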

How the data were processed

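RNA-seq was measured in 32 libraries of MCF10A clones. The authors trimmed reads with Trimmomatic, aligned them with STAR to Ensembl GRCh38 and deposited whole-number read counts per gene, without normalization. The library kit named in the study keeps no strand information, and whether counting used strand is not given in the sources used here. No member overlaps another gene of the table. Gene identifiers were matched to GENCODE release 44 (17763 of 17788 named), and 0 sample columns were left unused.

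Groups, clones and replication numbers came from the labels. Any 2 libraries of a group differed by far more than sampling noise (chi-square over its degrees of freedom at least 11.6), so that none was a copy of another. This does not make the 2 replications of a clone independent samples of a genotype. Each library was nevertheless counted as its own sample. The labels do not say how the replications of a clone were kept apart, and p-values measure the spread between these libraries. Low counts were removed with edgeR 4.0.16 (filterByExpr with min.count of 10 and min.total.count of 15), which left 14865 genes. As in the study's methods, counts scaled by library size were fitted with limma-voom (limma 3.58.1, R 4.3.3) with ~0 + condition over all 32 libraries. The p-values, which cover both directions, were adjusted by the Benjamini-Hochberg method over all genes in each of 17 comparisons, and calls needed an adjusted p under 0.05. NEDD9 got no p where solvent libraries entered. The fits and the permutation test were tested on simulated data.

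CPM are counts scaled to a library total of 1e6, and per-length values divide them by the union of annotated exons. Totals of 39702412 to 54651906 counts set the counting precision. Intervals were not computed, and reads are not independent molecules.

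The members and gene lists were chosen with earlier results of these data known, NEDD9 also having stood out in the 72 h interaction. Named pathway genes were, per functional group, the 2 with the largest absolute called change in WT at 72 h, mut against WT in solvent and the interaction at 72 h. CASS4, TGFB1I1, LPXN, CRKL, JUNB and the 5 genes most correlated with NEDD9 were added. Alternatives were TMM factors, edgeR quasi-likelihood, DESeq2 1.42.0, other filters, fits on fewer groups, replicate blocks, sums per clone, removal of the series 27-2 or 1-2, and leaving out each library. The series (clone and replication) pair libraries across treatments, since they hold the same clone. Their deviations from group means correlated at 0.302 on average, against 0.0183 for the same clone in the other replication. Pairs from different clones averaged -0.0955 in the same replication and -0.213 in the other replication. Libraries of a clone were thus on average more alike than libraries of different clones, and the fit of the 8 groups did not model this. Promoter windows came from RefSeq (GRCh38.p14), and those of 4 of the 7 members were searched. Windows on chromosome 8, which holds PTK2 and PTK2B, were left out of the search for the members, and no window was found for SRC.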

Additional observations from a re-analysis of the deposited data

Results flagged for a closer look

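In 11 of the groups of 4 libraries examined, 1 library stood far from the other 3, by the 95% limit of Dixon for the gap over the range of the log2 CPM values. Chance gives about 1 such group in 20, and 210 groups were examined over the members and named genes. Among the members, BCAR1 was at 119.8 CPM in the library WT solvent 2-1, beside 126 to 127 CPM in the other 3, and CRK was at 183 CPM in the library WT 72 h 2-2, beside 186 to 187 CPM in the other 3. CRK was also at 204 CPM in mut 24 h 65-2, beside 171 to 175 CPM. Among the pathway genes ARHGAP26 was at 29.4 CPM in WT 24 h 27-1 (20.2 to 21.2 CPM in the others), FERMT1 was at 121 CPM in mut solvent 1-2 (95.3 to 99.3 CPM in the others), GRB7 was at 15.1 CPM in WT solvent 27-2 (at most 23.3 CPM in the others) and ILK was at 177 CPM in WT 24 h 27-2 (137 CPM in each of the others). Likewise PTPN1 was at 162 CPM in mut 72 h 65-2 (179 to 182 CPM), TNS1 was at 33.8 CPM in WT 6 h 2-1 (24.5 to 24.7 CPM), TNS1 was at 40.1 CPM in mut 24 h 1-2 (58.6 to 59.4 CPM) and TNS2 was at 86.0 CPM in mut solvent 1-2 (104 to 107 CPM).

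The response to TGFβ1 differed between the genotypes by the interaction test of limma-voom, with adjusted p-values given above, in 4 cases among the members. The log2 interaction was -0.33 for PTK2 at 24 h, -0.33 for PTK2B at 24 h, -0.21 for PXN at 24 h, -0.37 for PTK2 at 72 h. Among the named pathway genes it was -0.38 for ILK at 72 h, -1.45 for TNS1 at 72 h, -0.64 for FERMT1 at 72 h. On sums of the replications of a clone, limma-voom did not call PTK2, PTK2B or PXN at 24 h (adjusted p = 0.0763, 0.175 and 0.159). ILK and FERMT1 at 72 h were not called there either (adjusted p = 0.123 and 0.102). No explanation was tested for these interactions.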

How the results depend on the processing

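Counts below are members called (of 6, or of 7 where no solvent library enters) and genes of the 56-gene pathway list. With TMM factors, the edgeR quasi-likelihood test and DESeq2, members called in mut became 4 at 24 h and 4 at 72 h instead of 2. The interaction at 72 h became 2 instead of 1. In that order, the shares of all genes called were 17.3%, 20.6% and 8.68% with TMM factors. They were 16.5%, 19.8% and 9.11% with quasi-likelihood, and 18.8%, 21.5% and 11.6% with DESeq2. DESeq2 also gave 1 member for the interaction at 6 h (0.31% of all genes) and 2 for WT 72 h against 24 h (12.5%). It gave 4 pathway genes in mut at 6 h (8.08%) and 10 for the interaction at 72 h. A mean count of at least 50 gave 2 members for WT 72 h against 24 h (9.97%). Fits on the compared groups alone gave 2 members in WT at 6 h (11.9%) and 0 for mut 24 h against 6 h (4.2%). Their pathway counts were 1 in mut at 6 h (3.21%) and 0 for the interaction at 6 h (0.0069%).

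With the series as a replicate block, pathway calls rose to 7 in mut at 6 h, 14 for the interaction at 24 h and 15 at 72 h. The shares of all genes called rose to 16.5%, 18.7% and 23.5%. Members rose to 1 for the interaction at 6 h (0.309% of all genes) and 2 for WT 72 h against 24 h (17.4%). The replication number as a replicate block also gave 2 there (9.65%), and the blocks moved no other count by over 1.5 times. Sums per clone, with 2 values a group, gave members of 2 in WT at 6 h (9.29% of all genes), 1 in mut at 24 h (13.7%) and 1 for mut against WT in solvent (7.92%). They gave 0 for the interaction at 24 h (2.01%) and 2 for WT 24 h against 6 h (18.5%). For the later WT and the earlier mut step they gave 0 (2.62% and 0.396%). Pathway counts on these sums were 1 and 11 in mut at 6 and 24 h (1.25% and 13.7%) and 6 for mut against WT in solvent. For the interactions at 6, 24 and 72 h they were 0, 3 and 1 (0%, 2.01% and 4%). Without the series 27-2 the interaction at 24 h had 1 member (8.31%). Without the series 1-2 it had 1 member and 2 pathway genes (4.84%), and the interaction at 6 h had 0 pathway genes (0%). Without that series, mut at 72 h had 12 pathway genes (16.7%), WT 72 h against 24 h had 2 members (7.64%) and mut 24 h against 6 h had 0 (3.34%).

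Leaving out 1 library gave 2 to 4 members in WT at 6 h, 1 to 2 in mut at 24 h, 0 to 1 for the interaction at 6 h, 1 to 3 at 24 h, 2 to 4 for WT 24 h against 6 h, 0 to 1 for WT 72 h against 24 h and 0 to 1 for mut 24 h against 6 h. Pathway genes ranged from 1 to 8 in mut at 6 h, 13 to 19 at 24 h, 13 to 20 at 72 h, 3 to 7 for the interaction at 24 h and 3 to 10 at 72 h. The shares of all genes called in these fits are not given here. The lowest or highest pathway counts came without mut 6 h 1-2 (8 in mut at 6 h), mut 24 h 1-1 (13 at 24 h), mut 72 h 1-2 (13 in mut and 10 for the interaction at 72 h) and mut solvent 65-2 (3 for the interaction at 72 h), and without any of WT solvent 2-1 or 2-2, WT 24 h 2-2 or mut 24 h 65-1 the interaction at 24 h had 3. Of 142 results for single genes, 38 did not keep their side of the threshold under all alternatives run. The other 104 include the NEDD9 comparisons with solvent libraries, which had no test and so no threshold to cross. Among called results 0 changed direction. The cause of these changes was not tested. Each comparison rests on 4 libraries from 2 clones a group, which limits all of them, and NEDD9 in WT solvent rests on as few as 77 counts a library.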
